A study of Arabidopsis thaliana with 8 samples.

Results

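The comparison described here sets 4 h against 1 h of dexamethasone within a single Arabidopsis thaliana line, and it draws on 4 of the 8 arrays of the series. The line carries 35S:LEC2-GR in the Ws-0 background, which is LEAFY COTYLEDON2 (LEC2) fused to the steroid-binding part of the glucocorticoid receptor and driven by a promoter active in most tissues. The members were taken by their labels: 2 arrays of 8 day old seedlings given dexamethasone for 4 h and 2 arrays of such seedlings given it for 1 h, each from polyA RNA of whole seedlings. The same fit also held 2 arrays of the uninduced line and 2 arrays of non-transgenic Ws-0 seedlings after 4 h of dexamethasone, which serve here to place each gene. The design text calls the arrays of a group biological replicates. All 22746 probe sets that are not controls were tested. No seedlings mock-treated for the same times were among the groups, so time since handling and time in dexamethasone cannot be told apart, and in whole seedlings a change in the number of cells of a type cannot be told apart from a change in RNA per cell.

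LEC2 is a B3-domain transcription factor of embryos that switches on seed maturation genes, among them those for storage proteins and for the oleosins that coat oil bodies. The receptor part holds the fusion in the cytoplasm until dexamethasone binds it, after which the fusion enters the nucleus. Genes that answer in the first hour can be direct targets or quick reactions to handling and treatment, whereas later answers also take in the products of those first genes. Building ribosomes is one of the most costly activities of a growing plant cell: RNA polymerase I makes the precursor of the ribosomal RNA, a large set of nucleolar proteins cuts and folds it, and ribosomal proteins are added.

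Signals are the authors' MAS5 intensities on a linear scale, and changes are given as log2(signal + 45), 4 h over 1 h, so that a positive value means a higher level at 4 h and the change of a weak gene is understated. The 4 h arrays had median signals of 178.9 and 178.4 and the 1 h arrays of 190.6 and 173.8. For GAPDH the 3′ control probes divided by the 5′ ones, a ratio that grows as RNA degrades, gave 2.46 and 1.59 at 4 h and 3.37 and 2.32 at 1 h. For actin the ratio was 9.21 and 8.64 at 4 h and 9.47 and 11.2 at 1 h, which orders the 1 h arrays the other way. The part of either ratio in the results below was not tested. The run record of 4 h replicate 2 comments on high background over part of its image. Of the probe sets tested, 13513 (59.4%) name a single gene, which gives 13355 genes with a probe set of their own, and no probe set is named for LEC2, so the transgene could not be read. Leaf markers were strong on every array (RCA 23596 and 29496 at 4 h, 36196 and 27647 at 1 h), and the root marker PYK10 lay between 7632.5 and 12590.4 on all 8 arrays. None of the 3 seed markers chosen had a named probe set.

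Between 1 h and 4 h, 1212 probe sets rose (5.33% of those tested) and 1087 fell (4.78%) at a limma adjusted p under 0.05. On all of these the 2 arrays at 4 h lay on the same side of both arrays at 1 h. With 2 arrays a group a call nearly requires this, so it adds no support. The change was at least 2-fold for 511 of the risen and 453 of the fallen probe sets. The median change was 0.92 among the risen, -0.92 among the fallen and -0.03 over all probe sets. The counts were lower whenever any 1 of the arrays at 1 h or 4 h was left out, which also leaves a group with 1 array. Among the 13355 genes, 608 rose (4.55%) and 506 fell (3.79%). To say whether a gene had already moved, each was set beside its own change from the uninduced line to 1 h, a comparison in which 1188 probe sets were higher (5.22%) and 888 lower (3.9%) at 1 h. Of the 608 genes that rose, 494 had not been called at 1 h, 88 had already been called higher and 26 had been called lower. Of the 506 that fell, 132 had been called higher at 1 h and 374 had not. Both comparisons use the 1 h arrays, so this sorting describes the genes and is no test: a gene read too high on those arrays would look like an early rise that faded.

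Most measured genes for building ribosomes rose late. Of a first list of 4 such genes with a probe set 3 rose (median 1.07), and a longer list, written after that count was seen and holding those 4, is described here. Of its 39 measured genes for ribosome assembly, 35 rose between 1 h and 4 h and none fell, with a median change of 1.28 against -0.04 over all genes, and all 39 changes were positive. The median signal of the 39 genes was 931 and 915.4 on the 4 h arrays, 331 and 358 at 1 h, 224 and 278 in the uninduced line and 819 and 764 in wild type at 4 h. The arrays at 4 h therefore all lay above those at 1 h, and those at 1 h above the uninduced ones. At 1 h, 6 of the 39 genes exceeded the uninduced line past the threshold, while at 4 h all 39 did, in a comparison with 11.0% of probe sets higher and 9.94% lower. Against wild type at 4 h, where 1.82% of probe sets were higher and 1.5% lower in the line, none of the 39 was called in either direction, and 2 had an unadjusted limma p under 0.05. That comparison uses the same 4 h arrays. Of the 35 calls, 29 held when each of the 4 arrays was left out in turn.

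**Figure D1:**
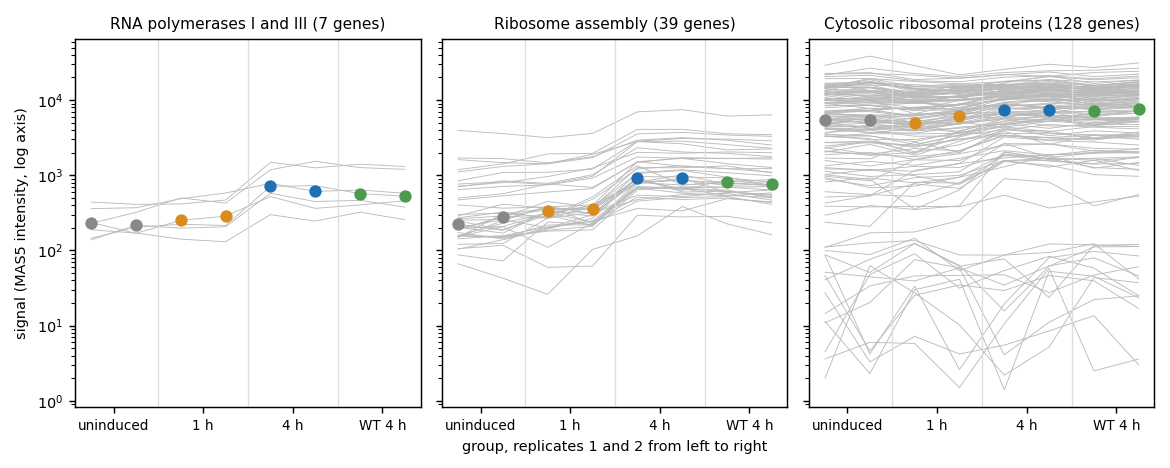
Signal of each measured gene (grey lines, 1 per gene, log axis) on the 8 arrays for RNA polymerase I and III subunits, ribosome assembly factors and cytosolic ribosomal proteins, with the median over the genes as a coloured point per array. For the assembly factors the medians at 4 h (931 and 915.4) stand above those at 1 h (331 and 358) and beside those of wild type at 4 h (819 and 764).

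The assembly genes that rose span the steps of the pathway. AT3G10530, a WD-repeat protein of the early small-subunit precursor related to yeast UTP7, had signals of 1515 and 1319 at 4 h, 312 and 396 at 1 h and 197 and 208 in the uninduced line. It rose by 1.88 (SE 0.16, limma adjusted p = 8.84e-05). AT3G06530, related to the UTP10 scaffold protein, had 1083 and 1181 at 4 h and 201 and 297 at 1 h and rose by 2.02. AT1G52930, a Brix-domain protein of the large subunit's assembly, had 2803 and 2622 at 4 h and 752 and 970.2 at 1 h and rose by 1.62. YAO, a nucleolar WD-repeat protein needed in embryo sac and embryo development, rose by 1.66, and IMP4, of the complex bound to the U3 guide RNA, rose by 1.28. AT5G14520, the plant relative of Pescadillo, and AT2G40360, that of BOP1, which work together on the large subunit, rose by 1.20 and 1.05. AT3G03920, related to GAR1 of the particles that modify ribosomal RNA, had 6964 and 7462 at 4 h and 3162 and 3601 at 1 h and rose by 1.08. The 4 genes that were not called were AT1G77030 (a change of 1.52, adjusted p = 0.0529), AT4G34910 (0.75), AT3G01160 (0.62) and AT3G12860 of the NOP56 type (0.56).

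Subunits of the polymerases that transcribe ribosomal and transfer RNA were among the genes that rose in the same interval. Of 7 measured subunits of RNA polymerases I and III, 4 rose and none fell (median 1.16). NRPA2, the second largest subunit of RNA polymerase I, had 1487 and 1256 at 4 h and 415 and 468 at 1 h, and the uninduced line stood at 439.9 and 410.1. Its rise of 1.54 (SE 0.14, limma adjusted p = 0.000124) followed a 1 h change of 0.05 that was not called. NRPA1, the largest subunit, had 711 and 727 at 4 h against 223 and 215 at 1 h and rose by 1.53. NRPC2 of RNA polymerase III rose by 1.16, a call that ended without 4 h replicate 1 or 1 h replicate 1 (adjusted p = 0.103 and 0.0639).

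A smaller share of the cytosolic ribosomal protein genes, a list also added after the first counts, was called. Of 128 measured genes 41 rose (32.0%) and 1 fell, and 118 of the 128 changes were positive, with a median of 0.34. Positive changes numbered 114 to 120 over the settings that kept all 128, and 113 of 118 with the filter on low values. The number called was 18 without 4 h replicate 1, 17 without 4 h replicate 2 and 15 without 1 h replicate 1, and it was 42 without 1 h replicate 2. Replicate 1 at 1 h is the array with the GAPDH ratio of 3.37, but its actin ratio (9.47) is below that of 1 h replicate 2 (11.2). The part of these ratios was not tested. Large rises were found in AT5G39850, for protein S9 of the small subunit, with 2048 and 1659 at 4 h and 351 and 392 at 1 h (change 2.18, limma adjusted p = 5.43e-05), and in AT5G59240, for protein S8, with 902 and 808 at 4 h and 176 and 251 at 1 h (1.81). AT3G57490, for protein S2, had 3225 and 2896 at 4 h, 1161 and 1439.8 at 1 h and 513 and 533 in the uninduced line and rose by 1.21. The fall was in AT2G40010, a gene for the stalk protein P0 read near the bottom of the scale (4.1 and 11.1 at 4 h, 75.6 and 58.7 at 1 h), and it was lost without 4 h replicate 1, 4 h replicate 2 or 1 h replicate 1 (adjusted p = 0.136, 0.0802 and 0.109). Ribosomal proteins belong to families of near-identical copies, whose probe sets may read each other. Of 8 measured genes for ribosomal proteins of the chloroplast none was called by limma or had an unadjusted p under 0.05 (median -0.11).

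Other genes of protein synthesis and folding showed smaller rises. Of the 8 measured subunits of CCT, the chaperonin that folds actin and tubulin, 6 rose and none fell, with changes of 0.45 to 0.84 and a median of 0.63. AT3G03960, its theta subunit, had 3115 and 3459.7 at 4 h and 1809 and 1819 at 1 h and rose by 0.84 (SE 0.11, limma adjusted p = 0.000796). Without 4 h replicate 2 or without 1 h replicate 1 the count for CCT was 2. Of 12 measured aminoacyl-tRNA synthetases 4 rose (median 0.43), and 1, 1 and 0 remained past the threshold without 4 h replicate 1, 4 h replicate 2 and 1 h replicate 1. Of 6 translation factors 3 rose (median 0.39), among them EIF4A-2, an RNA helicase of initiation, with 5233 and 6469 at 4 h and 3727 and 4133 at 1 h (0.56); that count was 0 without 4 h replicate 2 or 1 h replicate 1. Of 5 proteasome subunits none was called (median 0.16, 2 with an unadjusted p under 0.05).

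**Figure D2:**
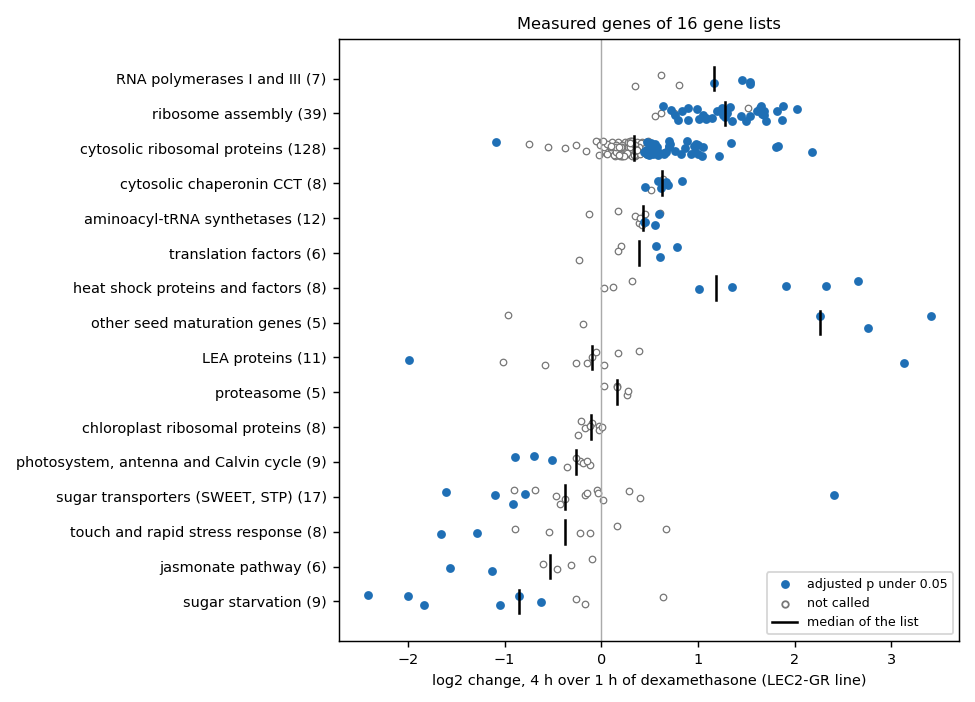
Change between 1 h and 4 h (log2, 4 h over 1 h, x axis) of every measured gene in 16 gene lists (rows, number of genes in brackets), filled where the adjusted p was under 0.05, with a bar at each list's median. All ribosome assembly genes lie to the right of 0 (median 1.28), and 8 of 9 sugar starvation genes lie to the left (median -0.85).

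Most of the measured heat shock genes also rose between 1 h and 4 h, where 4.55% of all genes rose and 3.79% fell. Of 8 measured heat shock proteins and factors 5 rose and none fell (median 1.18), and 3 rose without 4 h replicate 2. The class I small heat shock protein AT1G53540, which keeps unfolded proteins from clumping, had 475 and 949.7 at 4 h, 85.7 and 54 at 1 h and 114 and 46.3 in the uninduced line, a rise of 2.66 (SE 0.37, limma adjusted p = 0.00126). The mitochondrial small heat shock protein AT5G51440 had 722 and 825 at 4 h and 127 and 109.5 at 1 h and rose by 2.33. In neither gene was 1 h called different from the uninduced line (-0.08 and 0.45). The Hsp70 gene AT3G09440 went up in both intervals, by 1.60 to 1 h and by 1.02 from then to 4 h, and its signals were 7041 and 8494 at 4 h, 4771 and 3030.3 at 1 h and 1269.7 and 1181 in the uninduced line; without 4 h replicate 2 the later rise was not called (adjusted p = 0.0781). Wild type at 4 h had 609 and 386 for AT1G53540, 648 and 503 for AT5G51440 and 8024 and 6705 for AT3G09440. None of the 8 genes was called different from wild type at that time. Of all probe sets only 1.82% were higher and 1.5% lower in the line there, so 8 genes without a call say little about the list.

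Seed genes that rose late were few, but they include some of the steepest rises. AT3G54940, a papain-type cysteine protease of seeds, had 2834 and 3789 at 4 h and 191 and 368 at 1 h, with 57.9 and 49.5 in the uninduced line and 8.3 and 15.7 in wild type at 4 h. It was already called higher at 1 h (1.66) and rose by a further 3.41 (SE 0.29, limma adjusted p = 8.84e-05). OLEO3, an oleosin, had 2647 and 2623 at 4 h, 457 and 439 at 1 h, 253 and 139 uninduced and 40.4 and 80.3 in wild type, and rose by 2.44 after a first-hour change of 1.08. M10, a late embryogenesis abundant (LEA) protein of the kind that protects drying cells, had 471 and 423 at 4 h against 7.7 and 14.3 at 1 h and 11.9 and 5.4 in wild type, a rise of 3.14. The cupin AT4G36700, of the storage globulin family, had 238 and 282 at 4 h and 7.3 and 40.4 at 1 h and rose by 2.19. AT1G65090, another seed-expressed gene of the lists, had 217 and 231 at 4 h and 3.6 and 19.8 at 1 h (2.26). In these genes both 4 h arrays were far above the other 6. Over all genes 4.55% rose and 3.79% fell. Across the lists, 1 of 5 measured storage protein genes rose and none fell, 3 of 5 other seed maturation genes rose and none fell, and 1 of 11 LEA genes rose and 1, LTI30, fell (2 without 4 h replicate 1). The 3 seed maturation genes were AT3G54940, AT1G65090 and the defensin PDF2.1, which had signals of 204 and 195 in wild type at 4 h and was not called different from it. Of the other members, DELTA-VPE, a vacuolar processing protease of seed coats, had 39 and 3.1 at 4 h and 71.2 and 87.2 at 1 h (change -0.96, adjusted p = 0.124), and BETA-VPE, which processes storage proteins, changed by -0.18; neither was called. Most of the other storage protein and LEA genes were near the bottom of the scale on most arrays, and of the 3 measured embryo transcription factors none was called by limma or had an unadjusted p under 0.05 (BZIP53 -0.02, EEL -0.27, BBM 0.01).

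The remaining named late and continued rises differed in where wild type stood. AT2G34700, a protein of the Ole e 1 and extensin family, had 3049 and 3233 at 4 h and 134 and 118 at 1 h and rose by 4.22 (SE 0.31, limma adjusted p = 4.96e-05), with 58.5 and 114 in wild type at 4 h. The class III peroxidase AT5G19890 rose by 2.50, with 709 and 1129.9 at 4 h, 104 and 142 at 1 h and 115 and 76.6 in wild type. The GDSL-type lipase AT5G08460 had 3055 and 3290.1 at 4 h, 435 and 584 at 1 h and 99.5 and 129.7 in wild type and rose by 2.55. SWEET7, of the SWEET sugar transporters, had 573 and 551 at 4 h and 90.5 and 51.9 at 1 h, with 3.1 and 62.5 in wild type; its rise of 2.41 was not called with a pseudocount of 1 (adjusted p = 0.104). All 4 were also called higher in the line than in wild type at 4 h, by 4.63, 2.75, 4.34 and 3.08. A second set had wild type signals of the same order. AT2G41730 had the largest rise of all named genes, 4.60, with 2299.9 and 3059.6 at 4 h, 151 and 18.3 at 1 h and 2269 and 2475 in wild type, although its probe set may also bind other transcripts. UGT73C1, a glycosyltransferase that acts on cytokinins, rose by 2.90, with 344 and 589.7 at 4 h, 30.2 and 13.7 at 1 h and 261 and 275 in wild type. The defensin PDF2.1 had 405 and 429 at 4 h and 4.8 and 48.1 at 1 h, with 204 and 195 in wild type, and rose by 2.76. AT4G30650, a small membrane protein related to those induced by cold and salt, had 3789.7 and 2829 at 4 h, 1043 and 508 at 1 h and 7158 and 6076 in wild type and rose by 2.098. The differences of these 4 between the line and wild type were 0.16, 0.67, 0.92 and -1.0 and were not called.

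**Figure D3:**
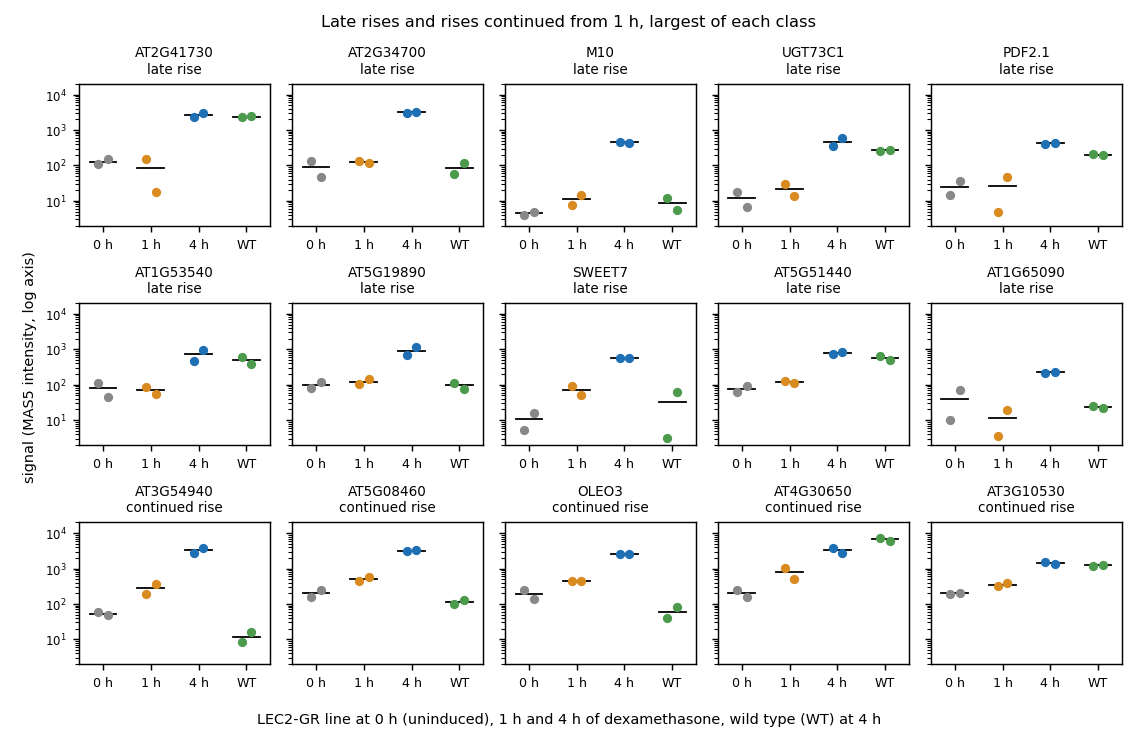
Signals (log axis) of the 10 genes with the largest increases among those not called at 1 h (late rise) and the 5 with the largest among those already called higher at 1 h (continued rise), a point per array and a bar at the mean of 2, in the uninduced line (0 h), the line at 1 h and at 4 h and wild type (WT) at 4 h. All 15 have both 4 h points above both 1 h points, as their selection required. Wild type stands near the 4 h points in some panels (AT2G41730) and near the bottom in others (AT3G54940).

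The early rises that faded most include genes linked to stress and defence. LTI30, a dehydrin of cold and drought, had 1863 and 1242 at 4 h, 8234 and 4617 at 1 h and 455 and 407 in the uninduced line. It fell by 1.99 (SE 0.26, limma adjusted p = 0.000784) after a first-hour change of 3.71. AT2G34930, a leucine-rich repeat protein of the disease resistance type, had 697 and 770.2 at 4 h, 2958 and 2756 at 1 h and 247 and 334 uninduced and fell by 1.90. In both genes the 4 h arrays lay below the 1 h arrays and above the uninduced ones. Wild type at 4 h had 2477 and 1883 for LTI30 and 660 and 484 for AT2G34930, and neither gene was called different from it. AT1G15010, whose function is not given in the tables used, fell by 3.17, the largest fall among them, with 280.1 and 199 at 4 h, 3486 and 1767 at 1 h and 236 and 361 uninduced, so its 4 h arrays lay within or below the uninduced range. AT1G15640 fell by 2.16, AT1G65490 fell by 2.13 and AT5G56980 fell by 2.05, and AT1G14780, of the membrane attack complex and perforin (MACPF) family, fell by 1.97.

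Calls for 3 of the 10 leading faded rises were lost when single arrays were left out. The call of AT5G52020 was also lost without the mean-variance trend (limma adjusted p = 0.065), and that of AT2G42140 with a pseudocount of 1 (0.061). AT2G02630, a cysteine- and histidine-rich C1-domain protein, had 29.6 and 11.7 at 4 h and 332 and 138 at 1 h and fell by 2.01, a call lost without 4 h replicate 2 (limma adjusted p = 0.0595). AT5G52020, an AP2/ERF transcription factor, had 38 and 6.8 at 4 h and 276 and 154 at 1 h and fell by 1.95, which was not called without 4 h replicate 1, 4 h replicate 2 or 1 h replicate 1 (adjusted p = 0.0628, 0.189 and 0.181). AT2G42140, a VQ-motif protein of the kind that binds WRKY factors, had 5.3 and 55.7 at 4 h and 216 and 214 at 1 h and fell by 1.87, with adjusted p = 0.0833 without 4 h replicate 1 and 0.0517 without 1 h replicate 1.

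**Figure D4:**
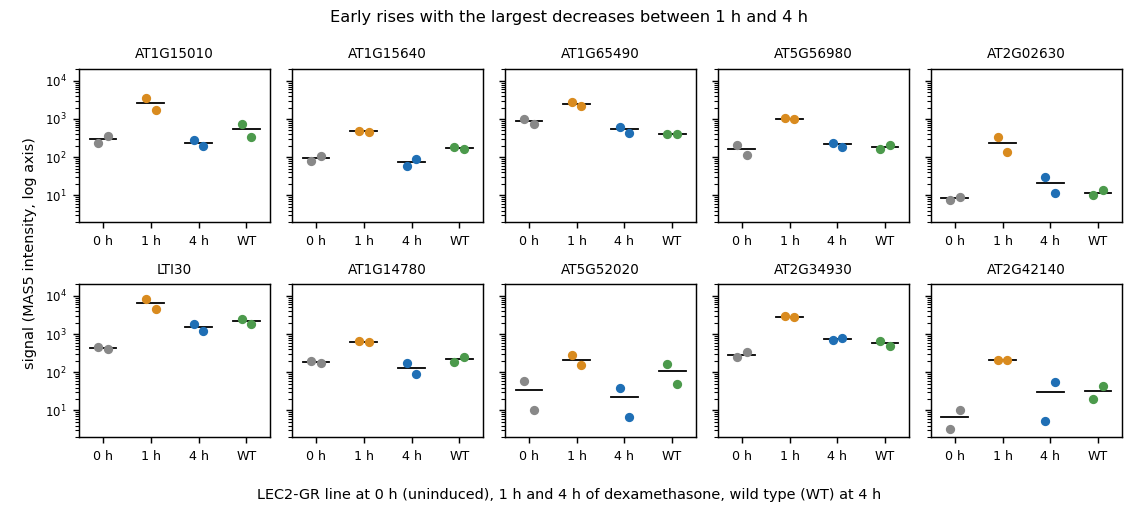
Signals (log axis) of the 10 named early rises with the largest decreases between 1 h and 4 h, a point per array and a bar at the mean of 2, in the uninduced line (0 h), the line at 1 h and at 4 h and wild type (WT) at 4 h. In every panel both 4 h points lie below both 1 h points, as the selection required. LTI30, for example, had 1863 and 1242 at 4 h and 8234 and 4617 at 1 h.

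Short lists of quick responses held a few further faded members. Over all genes 4.55% rose and 3.79% fell between 1 h and 4 h. Of 8 measured touch and rapid stress genes 2 fell and none rose (median -0.38). WRKY22, a transcription factor of the immune kinase cascade, had 409 and 433 at 4 h, 1360.5 and 874 at 1 h and 404 and 433 in the uninduced line and fell by 1.29 (SE 0.21, limma adjusted p = 0.00271). CML38, a calcium-binding protein, had 184 and 115 at 4 h and 571 and 549.8 at 1 h and fell by 1.66, a call lost without 4 h replicate 2 or 1 h replicate 1 (adjusted p = 0.0823 and 0.0683). STZ, a zinc finger repressor of stress responses, was not among them: it had 782 and 926 at 4 h, 1438 and 1097 at 1 h and 87.9 and 142 uninduced, and its change of -0.54 was not called. Of 6 jasmonate genes 2 fell and none rose (median -0.53). OPCL1, a ligase of jasmonate synthesis, had 415 and 435 at 4 h, 1064 and 909 at 1 h and 241 and 216 uninduced and fell by 1.13. AT5G05600, which hydroxylates and so inactivates jasmonate, had 846 and 1203 at 4 h, 4674 and 2004 at 1 h and 161 and 83.4 uninduced; it fell by 1.56, a call lost without 4 h replicate 1 or 1 h replicate 1 (adjusted p = 0.13 and 0.108). AT2G38240 of the same oxygenase group had 915 and 801 at 4 h and 1886 and 749.8 at 1 h, and its change of -0.46 was not called.

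Genes that loosen the cell wall went both ways. Of 29 measured expansins and xyloglucan endotransglucosylases 4 rose (13.8%) and 2 fell (6.9%), with a median of 0.04. Over all genes 4.55% rose and 3.79% fell. Without 4 h replicate 2, 1 rose and 1 fell, and 2 rose and 2 fell without 4 h replicate 1 or 1 h replicate 1. XTH18, a xyloglucan endotransglucosylase of roots, had 1323 and 1095 at 4 h, 3651 and 4809 at 1 h and 684 and 790.4 in the uninduced line, and fell by 1.76 (SE 0.16, limma adjusted p = 9.85e-05). The expansin-like EXLA1 had 1374 and 788 at 4 h and 2372 and 3322 at 1 h and fell by 1.39, which was not called without 4 h replicate 2 or 1 h replicate 2 (adjusted p = 0.0872 and 0.0704). XTH33 had 1831 and 1928 at 4 h, 481 and 1033 at 1 h and 430.0 and 435 in wild type and rose by 1.35, a call lost without 4 h replicate 1 or 2 (adjusted p = 0.059 and 0.0726). EXPA8, an expansin, fell in the first hour and then rose: it had 379 and 749.6 at 4 h, 148 and 135 at 1 h and 1689 and 1593 in the uninduced line. Its rise of 1.64 left it below the uninduced arrays.

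EXPA8 was 1 of the 26 genes that had been called lower at 1 h and then rose. The heme-binding SOUL-family gene AT1G78460 had 845 and 782 at 4 h, 188 and 163 at 1 h and 991 and 697 uninduced and rose by 1.96 (SE 0.21, limma adjusted p = 0.000267), which put the 4 h arrays within the uninduced range. AT1G15250, for ribosomal protein L37, had 2029 and 1625 at 4 h, 354 and 639.5 at 1 h and 1014 and 880.1 uninduced and rose by 1.83. The other named genes of this kind were the protein kinase AT3G59110 (1.47), AT5G49640 (1.43) and the class III peroxidase AT1G30870 (1.27). Their calls were lost without several single arrays, for example without 4 h replicate 1 (adjusted p = 0.135, 0.126 and 0.124) and 4 h replicate 2 (0.209, 0.0515 and 0.17).

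Most measured genes of a list switched on by sugar shortage fell further, where 3.79% of all genes fell and 4.55% rose. Of 9 members 6 fell between 1 h and 4 h and none rose (median -0.85), and 8 had already been called lower at 1 h than in the uninduced line. AT4G27450, an aluminium-induced-like protein, had 376 and 196 at 4 h, 1659 and 1651 at 1 h and 10334 and 8014 uninduced. Its fall of 2.42 (SE 0.23, limma adjusted p = 0.000156) was about as large as that of the first hour, 2.43. AT2G32150, a haloacid dehalogenase-like hydrolase, had 176 and 133 at 4 h and 872 and 644 at 1 h and fell by 2.00. The leucine breakdown genes of the list fell as well. MCCA, a subunit of methylcrotonyl-CoA carboxylase, had 253 and 165 at 4 h and 978 and 728 at 1 h and fell by 1.83. IVD, the isovaleryl-CoA dehydrogenase, fell by 1.04, and MCCB, the other carboxylase subunit, fell by 0.85. AKINBETA1, a subunit of the energy-sensing SnRK1 kinase, fell by 0.62, which was not called without 4 h replicate 2 or 1 h replicate 1 (adjusted p = 0.229 and 0.222). AT1G23390, an F-box Kelch protein, and ATL8, a ubiquitin ligase, changed by -0.17 and -0.26 and were not called. AT2G20670 had 175 and 177 at 4 h, 33.3 and 212 at 1 h and 4841 and 2824 uninduced. Its change of 0.64 was the only positive one of the list and was not called (adjusted p = 0.466); it was called higher without 1 h replicate 2 (adjusted p = 0.0225) and was negative without 1 h replicate 1. Wild type at 4 h had 362 and 286 for AT4G27450 and 166 and 243 for MCCA, and none of the 9 was called different from it. Only 1.82% of all probe sets were higher and 1.5% lower in the line in that comparison, so 9 genes without a call say little about the list.

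Among the other named late falls, only AT4G38690 had also been called lower at 1 h. AT4G30470, of the cinnamoyl-CoA reductase-like enzymes, had 230.0 and 235 at 4 h, 1027 and 902 at 1 h, 736 and 759 uninduced and 846 and 881 in wild type at 4 h. It fell by 1.86 (SE 0.14, limma adjusted p = 5.24e-05) and its 4 h arrays were below the other 6. AT5G38710, a proline dehydrogenase, had 9.7 and 3 at 4 h, 182 and 106 at 1 h and 106 and 70.7 in wild type and fell by 1.85, and AT5G11070, with 205 and 96.9 at 4 h, 860.2 and 703 at 1 h and 416 and 621 in wild type, fell by 2.13. AT1G66760, a MATE-type efflux carrier, had 61.3 and 116 at 4 h, 566 and 448 at 1 h and 113 and 99.3 in wild type and fell by 2.07. AT4G38690, a phospholipase C-like phosphodiesterase, had 152 and 125 at 4 h, 772 and 738 at 1 h and 2424 and 1919.5 uninduced and fell by 2.13.

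Of 17 measured sugar transporters of the SWEET and STP families 4 fell and 1, SWEET7, rose between 1 h and 4 h (median -0.38). Over all genes 3.79% fell and 4.55% rose, so the 1 rise (5.9%) is near that share. Against wild type at 4 h, 4 of the 17 were called lower in the line and 1 higher. In that comparison 1.5% of all probe sets were lower and 1.82% higher. SWEET2, a vacuolar sugar carrier, had 148 and 121 at 4 h, 502 and 502 at 1 h and 532 and 441 uninduced and fell by 1.61 (SE 0.19, limma adjusted p = 0.000504), and SWEET11, a sucrose exporter of leaf veins, had 2331 and 2432 at 4 h and 4612 and 4447 at 1 h and fell by 0.91. SWEET17, a fructose carrier, had 135 and 181 at 4 h and 404 and 371 at 1 h and fell by 1.10; without 4 h replicate 1 or without 1 h replicate 1 this was not called (adjusted p = 0.0874 and 0.0813), and 2 of the family then fell.

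Of 9 measured genes of the photosystems, antennae and Calvin cycle 3 fell, none rose and 6 were not called. Over all genes 3.79% fell and 4.55% rose. All 9 changes were negative (median -0.26), although LHCB4.3 or PSAE-1 turned positive under quantile normalization or without 4 h replicate 1 or 1 h replicate 1. LHCB4.2, an antenna protein of photosystem II, had 10184 and 10027 at 4 h, 18864 and 18714 at 1 h and 27657 and 29509.9 uninduced and fell by 0.89 (SE 0.13, limma adjusted p = 0.00145). The Calvin cycle enzymes PRK, with 9754 and 8998 at 4 h and 15899.6 and 14432 at 1 h, and SBPASE fell by 0.69 and 0.51. Without 4 h replicate 1, 4 h replicate 2 or 1 h replicate 1, LHCB4.2 alone was called (for PRK adjusted p = 0.0567, 0.103 and 0.0866). RCA, which activates Rubisco, changed by -0.26 and was not called. Wild type at 4 h had 9621 and 10714 for LHCB4.2 and 26527 and 28864 for RCA. None of the 9 genes was called different from wild type at 4 h, where 1.82% of probe sets were higher and 1.5% lower in the line.

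**Figure D5:**
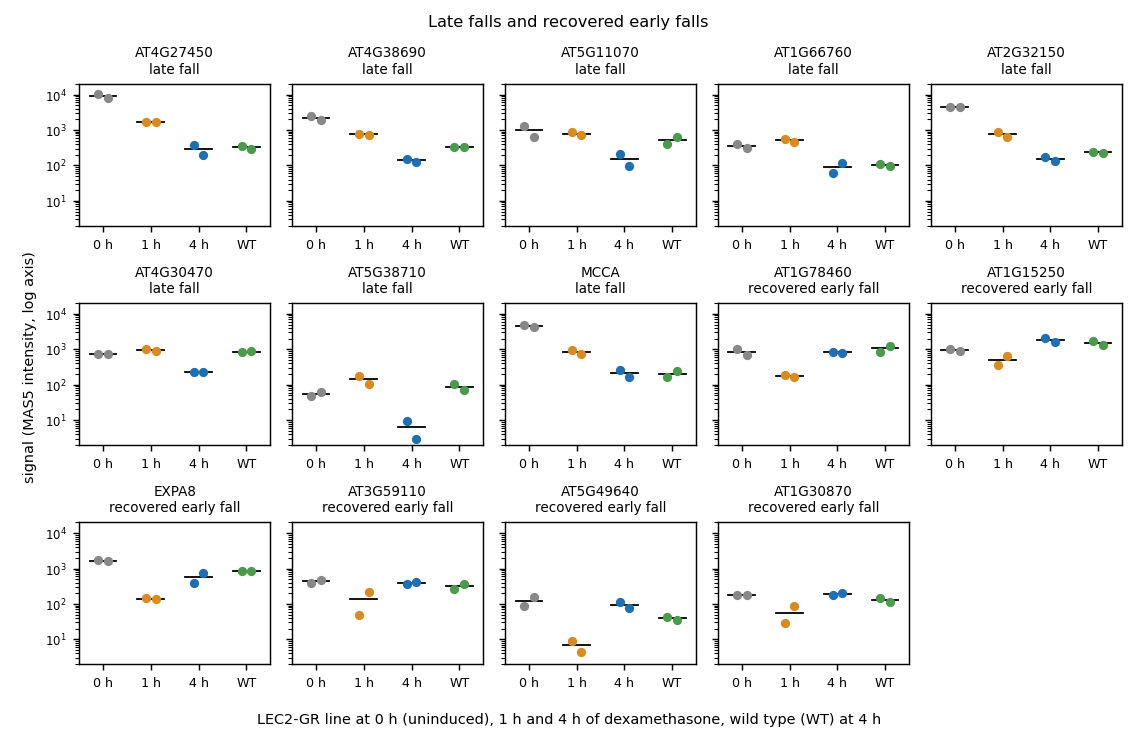
Signals (log axis) of the 8 named late falls and the 6 named genes that fell by 1 h and rose again by 4 h, a point per array and a bar at the mean of 2, in the uninduced line (0 h), the line at 1 h and at 4 h and wild type (WT) at 4 h. AT4G27450 and MCCA step down at each time, whereas AT4G30470 was lower only at 4 h in the line (230.0 and 235) than in the other 3 groups.

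Few auxin genes were called between the times, where 4.55% of all genes rose and 3.79% fell. Of 11 measured Aux/IAA and GH3 genes 1 rose and none fell (median -0.03): WES1, a GH3 enzyme that conjugates auxin, had 853 and 802 at 4 h, 501 and 394 at 1 h and 1391 and 1141 uninduced and rose by 0.83 (SE 0.17, limma adjusted p = 0.0102), a call lost without 4 h replicate 1, 4 h replicate 2 or 1 h replicate 2 (adjusted p = 0.08, 0.0575 and 0.064). Of 3 measured auxin synthesis genes of the YUCCA family none was called by limma, and 2 had an unadjusted p under 0.05. YUC4 had 340.1 and 374 at 4 h and 191 and 167 at 1 h (change 0.85, adjusted p = 0.151), and YUC6 had 20.3 and 22.1 at 4 h and 109 and 86.8 at 1 h (-1.11, adjusted p = 0.0534). YUC6 was called lower with a pseudocount of 1, with the filter on low values and without the mean-variance trend (adjusted p = 0.0467, 0.0448 and 0.0414). YUC2 changed by 0.33 and was not called.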

How the data were processed

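Per the submitters' processing notes, the authors made 1 signal intensity per probe set and array with MAS5 (version not given in the sources used here), and the deposited values were scaled to a trimmed mean of 500.05 on each array. Of 22810 probe sets 64 controls were left out. From these intensities log2(signal + 45) was computed, and lmFit and eBayes of limma 3.58.1 (R 4.3.3) fitted the 4 group means over all 8 arrays, with trend = TRUE, which left 4 residual degrees of freedom beside 6.79 from the prior. A call needs a Benjamini-Hochberg adjusted p under 0.05 over all 22746, with no filter on low values. Replicates correlated at 0.970 to 0.978 on this scale, and 2 arrays a group limit the precision. The fitting script was tested on simulated data.

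Genes were named from the platform annotation, updated by RefSeq (TAIR10.1, names only), and of several probe sets the one with the highest mean stands for a gene. The named genes are, by size of change, 10 late rises, 5 rises continued from 1 h, 10 faded early rises, 8 late falls and 6 recovered falls. Up to 4 members by absolute change were also named in lists described above, though not in all of them. Members of added lists, and further members given as examples, were chosen with their values seen. The members and lists were chosen with earlier results of these data known, and the lists of ribosome assembly (the longer one), cytosolic ribosomal proteins, signalling peptides, the cellulose synthase family, aminoacyl-tRNA synthetases, translation factors, RNA polymerases, CCT, proteasome, chloroplast ribosomal proteins and low-oxygen genes were added after the first list counts were seen. Also added then, and not described above, were lists of U-box ligases (2 of 9 fell), trichome birefringence-like genes (2 of 22) and tetraspanins (2 of 15). Lists of LBD, TCP and SPL factors (3 genes) and of cytochrome P450 genes by symbol (26 genes) had no call. Those of ERF-type, NAC, homeobox and zinc finger factors, nitrate and amino acid transporters, terpene synthases and GATL-type glycosyltransferases measured 1 or 2 genes, none called. Lists written first but without a count above were those of plant defensins (2 of 13 rose) and cold and abscisic acid response (1 of 4 rose). Others were pectin methylesterases and inhibitors (1 of 4 fell), WRKY factors (1 of 7 fell) and calmodulin-like proteins (1 of 8 fell). None went the other way in these lists, and none of 3 flavonoid and phenylpropanoid genes was called. Promoter motifs were not analysed here. The lists are described by counts and medians with no set test, and over all genes 4.55% rose and 3.79% fell. Only genes with a probe set of their own were measured, in some lists a small part of those named. Measured were 9 of 53 photosystem, antenna and Calvin cycle genes, 5 of 32 proteasome subunits and 3 of 17 embryo transcription factors.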

Additional observations from a re-analysis of the deposited data

How the results depend on the processing

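The counts of 1212 risen and 1087 fallen probe sets stayed within 1.5-fold with a pseudocount of 1 (1244 and 1143) or 100 (1201 and 1077), a filter on low values that kept 15022 probe sets (1553 and 1404), quantile normalization (1230 and 1102) and the replicate number as a replicate block (1163 and 1056). Deviations of same-numbered arrays at 4 h and 1 h correlated at -0.06, so the numbers were not read as pairs. The counts were 751 and 683 with only the 1 h and 4 h arrays in the fit and 639 and 568 without a mean-variance trend; leaving out 1 array gave 574 to 1006 risen and 512 to 901 fallen. For cytosolic ribosomal proteins the number risen was 20 with only the 4 arrays, 11 without the trend and 15 to 42 without 1 array. For CCT it was 2, 1 and 2 to 5 in that order, and for heat shock genes 3 without the trend and 3 to 5 without 1 array. The cause of these shifts was not tested, beyond the lower number of arrays. Ribosome assembly genes called higher numbered 29 to 37 over the 11 settings and sugar starvation genes called lower 5 or 6. Of the 39 named genes 32 kept their call in all 11 settings, 33 in those that leave out 1 array, and no value changed sign among the called. With 2 arrays a group and no detection calls in the deposited values, small changes and weak signals are the least certain.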

Other observations

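Lists of conjugating and defence enzymes gave few and mixed changes between 1 h and 4 h. Over all genes 4.55% rose and 3.79% fell, and of the measured UDP-glycosyltransferases 7.0% went each way. Of 43 measured UDP-glycosyltransferases 3 rose and 3 fell (median -0.06), and 1 rose and 1 fell without 4 h replicate 2. UGT73B5 had 623 and 517 at 4 h and 321 and 133 at 1 h and rose by 1.26, while UGT71C4 had 659 and 788 at 4 h and 1566 and 1282 at 1 h and fell by 0.93. The call of UGT73B5 was lost without 4 h replicate 1 (limma adjusted p = 0.179), 4 h replicate 2 (0.108) or 1 h replicate 2 (0.135). Of 12 glutathione S-transferases 2 fell and none rose, GSTU16 by 1.03 and GSTU18 by 0.80, and without 1 h replicate 1 neither was called. Of 7 listed class III peroxidases 2 rose, and 1 rose without 4 h replicate 1, 4 h replicate 2 or 1 h replicate 1. AT5G64120 had 7269 and 6561 at 4 h, 2666 and 2605 at 1 h and 2217 and 2877 in wild type and rose by 1.37 (SE 0.14, limma adjusted p = 0.000233). Outside this list, the class III peroxidases AT5G19890 and AT1G30870 described above were also called higher, by 2.50 and 1.27. Of 24 measured cytochrome P450 genes, 7 basic helix-loop-helix factors and 17 signalling peptides none was called by limma or had an unadjusted p under 0.05. The lists name 244, 31 and 84 such genes, so most members were not read.

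Low-oxygen response genes are listed with the sugar starvation gene AT4G27450 and with CML38, so these lists are not separate. Over all genes 4.55% rose and 3.79% fell between 1 h and 4 h. Of 25 measured low-oxygen genes 4 fell and 1 rose (median -0.18), and 2 fell without 1 h replicate 1. Against the uninduced line, 11 of the 25 were lower and 4 higher at 1 h, where 3.9% of probe sets were lower and 5.22% higher. At 4 h, 12 were lower and 4 higher than uninduced, where 9.94% of probe sets were lower and 11.0% higher. AT1G19530 had 206 and 227 at 4 h, 875 and 709 at 1 h and 2285 and 2404 in the uninduced line. It fell by 1.67 between 1 h and 4 h (SE 0.16, limma adjusted p = 0.00013). PDC2, a pyruvate decarboxylase of fermentation, had 866 and 978 at 4 h, 439 and 427 at 1 h and 109 and 201 in the uninduced line and rose by 1.01, which was not called when 1 of the 4 arrays was left out (adjusted p = 0.0597, 0.108, 0.0706 and 0.0586). Of 8 measured genes of the cellulose synthase family, a separate list, 1 fell and none rose (median -0.34). This was CSLD2, a cellulose synthase-like protein of root hairs, which had 634 and 487 at 4 h, 1295 and 1244 at 1 h and 622 and 690.5 in the uninduced line and fell by 1.13.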
